A study of Homo sapiens with 12 samples.

Results

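The genes described here are 38 genes known to be induced by androgen in prostate cells, outside the kallikrein proteases and the other transcripts most often used as androgen readouts. They were taken by gene symbol from a list of known targets, which was written with earlier results of these data known. Of the 38 genes, 34 had a probe with their symbol and 29 were measured, out of 12227 genes tested on the array. A gene counted as measured when at least 1 of its probes had a detection p-value under 0.05 on at least 2 of the 12 arrays. STEAP4, GNMT, NNMT, HPGD and ORM1 did not reach that level, and ACSL3, ADAM7, SORD and KCNN2 were not analysed here. A gene could pass through the group in which it is high, so the 29 measured genes do not stand for all 38.

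The study asked how wild-type and prostate cancer mutant forms of SPOP, which brings substrates to a ubiquitin ligase built on CUL3, alter gene expression. All arrays carry RNA from LNCaP-Abl, an established prostate cancer line derived from LNCaP by long growth without androgen. The cells of every group, controls included, grew in medium with charcoal-stripped serum, which holds little steroid, and were treated with doxycycline to induce the introduced construct. The 5 groups differed in the construct, with 3 arrays for the control vector, 3 for wild-type SPOP and 2 each for SPOP F102C, SPOP F133V and SPOP F133L. Each mutation replaces a phenylalanine of the domain that holds substrates. The arrays of a group are described as biological replicates, with no word on whether they were separate lines.

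Androgen changes transcription in luminal prostate cells through DNA elements that regulate its target genes. These targets include secreted proteins, membrane transporters, enzymes of polyamine and lipid metabolism, and signalling proteins that feed back on growth. Transcriptional coactivators are among the known substrates of SPOP. An androgen response element is usually a pair of half-sites that face each other, and most elements lie in enhancers far from the gene start.

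To show what the sequence next to these genes holds, RefSeq windows (GRCh38.p14) from 250 bases before to 50 bases after each gene start were searched on both strands for the half-site AGAACA, which reads TGTTCT on the other strand. Of the 29 measured genes, 23 had a window, and 4 of these 23 (17.4%) held a half-site. Among all 27305 genes with a window, 4790 (17.5%) held at least 1. A gene could have several starts and counted if any of its windows held the half-site. The 23 genes had 40 windows and the 27305 had 35116, and the shares were not adjusted for this. The pair of half-sites facing each other 3 bases apart was found in 0 of the 23 genes and in 1 of the 27305. The 5 windows with a half-site are printed because they are the only measured members' windows that hold these letters, with the half-site in capitals. They lie at chr2:233979899-233980198 on the plus strand for TRPM8, chr5:76547159-76547458 on the plus strand for IQGAP2, and chr5:38557418-38557717 on the minus strand for LIFR. PMEPA1 has a window at chr20:57711423-57711722 and another at chr20:57710528-57710827, both on the minus strand. Each of these 4 genes also has windows at other starts, without a half-site. The printed TRPM8, IQGAP2 and LIFR windows, and the second of PMEPA1, each lie downstream of another start of the same gene. Counted from 0 at the start of the printed window's transcript, the half-site begins at base -166 for TRPM8, -55 for IQGAP2 and -8 for LIFR. In the respective windows of PMEPA1 it begins at 22 and -229.
TRPM8: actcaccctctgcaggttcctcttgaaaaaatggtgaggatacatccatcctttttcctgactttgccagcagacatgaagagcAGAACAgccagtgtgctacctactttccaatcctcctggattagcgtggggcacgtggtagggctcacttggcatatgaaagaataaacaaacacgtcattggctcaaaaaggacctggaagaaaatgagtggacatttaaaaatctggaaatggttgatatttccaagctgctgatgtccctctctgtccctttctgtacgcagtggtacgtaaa
IQGAP2: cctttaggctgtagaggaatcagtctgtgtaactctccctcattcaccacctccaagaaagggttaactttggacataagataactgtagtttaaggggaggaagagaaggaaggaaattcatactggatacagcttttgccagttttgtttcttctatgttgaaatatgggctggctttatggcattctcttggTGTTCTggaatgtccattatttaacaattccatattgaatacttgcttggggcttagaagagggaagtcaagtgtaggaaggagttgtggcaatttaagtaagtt
LIFR: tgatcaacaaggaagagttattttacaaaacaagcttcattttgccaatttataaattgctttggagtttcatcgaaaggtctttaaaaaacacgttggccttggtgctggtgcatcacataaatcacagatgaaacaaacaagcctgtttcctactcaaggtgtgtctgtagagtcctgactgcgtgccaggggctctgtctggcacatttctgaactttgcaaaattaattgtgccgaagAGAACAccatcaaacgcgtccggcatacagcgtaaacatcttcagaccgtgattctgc
PMEPA1, first window: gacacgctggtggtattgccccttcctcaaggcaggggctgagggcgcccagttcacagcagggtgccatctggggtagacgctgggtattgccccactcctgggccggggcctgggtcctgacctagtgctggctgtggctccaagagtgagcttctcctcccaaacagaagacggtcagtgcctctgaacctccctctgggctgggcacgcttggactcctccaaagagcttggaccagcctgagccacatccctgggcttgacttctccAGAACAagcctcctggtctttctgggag
PMEPA1, second window: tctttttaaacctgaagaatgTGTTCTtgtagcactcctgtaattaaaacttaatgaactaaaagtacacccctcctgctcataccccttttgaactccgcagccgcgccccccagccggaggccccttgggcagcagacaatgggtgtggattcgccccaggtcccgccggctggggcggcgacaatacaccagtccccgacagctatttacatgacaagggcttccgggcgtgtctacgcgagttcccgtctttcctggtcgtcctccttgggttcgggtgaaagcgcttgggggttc

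Each array detected 17485 to 19677 of 47323 probes, with 19272 to 19677 for the control vector, 18906 to 19175 for wild-type SPOP and 17485 to 19543 for the mutants and the F133V arrays lowest at 17485 and 17864. Over genes, Pearson r was 0.990 to 0.994 within groups and 0.983 to 0.992 between groups, and no array repeated another. The level of SPOP itself did not separate the groups. Its difference between wild-type SPOP and control arrays was -0.05 ± 0.10 on the log2 scale (SE here and below, limma, adjusted p = 0.841). The position of its probe in the transcript is unknown here, so this level does not check the construct, and groups are called by their labels throughout. Of 9 luminal prostate markers 7 had a named probe, of which 6 were detected on all 12 arrays. The 3 basal markers with a probe were detected on 0 arrays, as were 4 of 5 fibroblast markers. The summed linear level of the tested luminal markers was 7986 to 8410 with the control vector, 9071 to 9733 with wild-type SPOP and 8146 to 8871 with the mutants. Of 5 neuroendocrine markers with a probe, 3 were detected on 0 arrays. The sum of the other two, ENO2 and INSM1, was 264 to 308, 418 to 477 and 523 to 589 in that order. Of 5 immune markers, 2 were detected on 0 arrays and 2 were tested, with sums of 189 to 197, 167 to 217 and 213 to 293 in the same order. These sums moved with the groups, and their part in the results below was not tested.

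Wild-type SPOP arrays held less transcript of some measured targets, and mutant arrays held more of a larger number. Against the control vector, 7 of the 29 measured genes fell in wild-type SPOP arrays and 0 rose. Across all tested genes 3.07% fell and 3.08% rose. The falling genes were PMEPA1, PTGER4, ELL2, EAF2, SLC45A3, ABCC4 and CENPN. With limma's unadjusted p under 0.05, 14 of the 29 were lower and 0 higher. The share of all genes at that cut was not counted, and the adjusted shares above are no background for it. For scale, SGK1, with an unadjusted p of 0.0502 in the same fit, ranked 2586 among the 12227 tested genes, both directions together. The median difference of the 29 genes was -0.19 on the log2 scale, beside 0.00 over all tested genes, and -0.11 without control array 3. A call means an adjusted p under 0.05 in a limma fit to all genes and all 12 arrays, and a level is the normalized log2 intensity of a gene's brightest detected probe. Detected probes varied with the construct, and with their number as a covariate 4 genes were called lower. The count was also 4 without the first control array. Calls over all tested genes, in either direction, numbered 343 with the covariate and 426 without that array, beside 752 in the main fit. In RNA from whole cultures, fewer cells with a transcript and less of it per cell cannot be told apart.

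Against wild-type SPOP, 16 of the 29 genes rose in the average of the 3 mutants and 1 fell, where 5.57% of all tested genes rose and 6.18% fell. The 16 were TRPM8, NDRG1, EAF2, RHOU, PTGER4, ACP3, ABCC4, CREB3L4, PMEPA1, LIFR, CENPN, PLPP1, SLC45A3, IQGAP2, C1orf116 and HERC3, and the falling gene was STEAP2. The median difference was 0.39 on the log2 scale for the 29 genes and -0.01 for all tested genes. Against the control vector, 12 of the 29 genes rose in the mutants and 2 fell, where 5.59% of all tested genes rose and 6.62% fell. The median difference was then 0.27 for the 29 genes and -0.01 for all genes, and 0.16 for the members without F133V array 2. Any pair of these comparisons shares the arrays of a group, so their values stand side by side as descriptions.

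Array scaling mattered for the absolute direction. With arrays set to equal medians of all probes in place of quantile normalization, the median of all genes moved to -0.10, -0.26 and -0.37 in the 3 comparisons, in the order given above. The members counted 7 lower in wild-type SPOP arrays, 8 higher and 3 lower in the mutants against wild-type SPOP, and 3 higher and 12 lower in the mutants against the control vector. Among all 12227 tested genes, 169 were then called higher and 424 lower, 141 and 4476, and 156 and 6779 in the same order. Of all genes called under that scaling, 28.5%, 3.05% and 2.25% were higher. With equal medians of only those probes that every array detected these shares were 51.6%, 74.6% and 75.8%, beside 50.1%, 47.4% and 45.8% with quantile normalization. The 2 equal-median scalings shift every gene of an array alike, so the members' place relative to other genes cannot differ between them. In the mutants against wild-type SPOP 26 of the 29 genes lay above the median of all genes under these and quantile normalization. In the mutants against the control vector 18 of 29 did so. The members' median exceeded that of all genes by 0.40 and 0.28 in these comparisons with quantile normalization. It did so by 0.35 and 0.20 with equal medians, and by 0.19 and 0.10 with the authors' processed values. With detected probes as a covariate, 11 members rose against wild-type SPOP. Against the control vector 2, NDRG1 and RHOU, then rose and 1, PMEPA1, fell. With that covariate, calls over all tested genes in either direction also dropped, to 308 and 107 in these comparisons from 1437 and 1494.

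**Figure D1:**
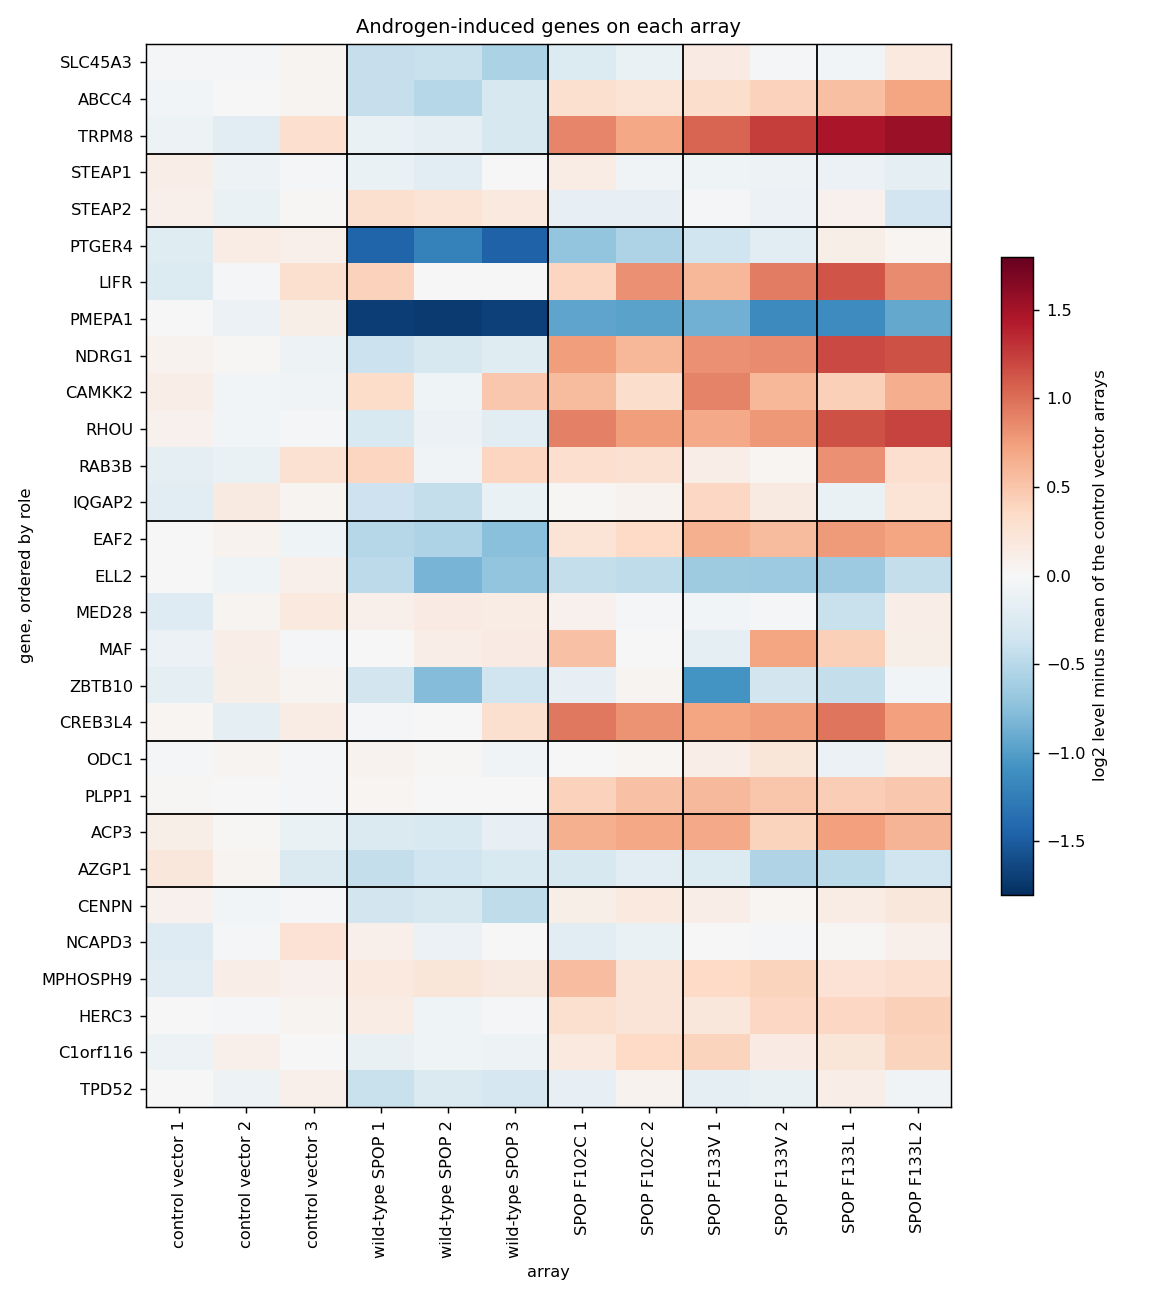
Log2 level of the 29 measured androgen-induced genes (rows, ordered by role) on each of the 12 arrays (columns), drawn as the difference from the mean of the 3 control vector arrays. PMEPA1 and PTGER4 are darkest blue on the wild-type SPOP arrays, while TRPM8, NDRG1 and RHOU are darkest red on the SPOP F133L arrays.

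The heat map of levels by array showed the same ordering within single arrays. The median difference of the 29 genes from the control mean was -0.03 to 0.04 for the control vector, -0.17 to -0.12 for wild-type SPOP and 0.15 to 0.24 for the mutants. Genes above the control mean numbered 13 to 17, 7 to 10 and 18 to 22 on the arrays of these groups. Genes within a list are not replicates, and these medians describe the arrays.

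Among transporters and channels, 3 of 4 listed genes were measured, and each was above wild-type SPOP in the mutants. TRPM8 encodes a cation channel opened by cold and menthol. Its log2 level was 7.69, 7.58 and 8.09 on the control arrays and 7.67, 7.61 and 7.49 on the wild-type SPOP arrays. It was 8.66 and 8.49 with F102C, 8.83 and 9.02 with F133V, and 9.25 and 9.34 with F133L. All mutant arrays lay above all others, while control and wild-type arrays overlapped. The mutants exceeded wild-type SPOP by 1.34 ± 0.11 on the log2 scale (SE, 6 against 3 arrays), or 2.53-fold (limma, adjusted p = 3.27e-05). They exceeded the control vector by 1.15 ± 0.11 (adjusted p = 7.09e-05), and this call was lost with detected probes as a covariate (0.92, adjusted p = 0.0949). Wild-type SPOP differed from the control by -0.19 ± 0.13, which did not pass the threshold (adjusted p = 0.440), and the other TRPM8 probe gave 0.00.

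ABCC4 encodes a membrane pump that exports cyclic nucleotides and drugs. Levels were 10.93, 10.98 and 11.02 on control arrays and 10.56, 10.46 and 10.69 on wild-type SPOP arrays. The mutants gave 11.27 and 11.23 for F102C, 11.29 and 11.39 for F133V, and 11.52 and 11.69 for F133L. The groups stood apart in the order wild-type SPOP, control, mutants. ABCC4 fell by 0.41 with wild-type SPOP (limma, SE 0.09, adjusted p = 0.0246) and was 0.83 ± 0.08 above wild-type SPOP in the mutants (adjusted p = 0.000105). Its rise over the control, 0.42 ± 0.08, had an adjusted p of 0.00620, and under equal medians of all probes the value was -0.03. The fall was not called with a second ABCC4 probe (-0.27, adjusted p = 0.213). Adjusted p-values of further probes, here and below, are over all 23133 kept probes and not over genes. On that scale the brightest ABCC4 probe had 0.0498 for the fall. It was also lost without control array 1, 2 or 3 or wild-type SPOP array 1 or 2, at adjusted p of 0.0536 to 0.0991. SLC45A3, a sugar transporter family member of the luminal prostate, fell by 0.46 with wild-type SPOP and was 0.44 above wild-type SPOP in the mutants. Its mutant level lay at -0.02 from the control, which did not pass the test. The SLC45A3 call above wild-type SPOP was lost under equal medians of all probes (0.13, adjusted p = 0.506). It was also lost with detected probes as a covariate (0.45, adjusted p = 0.0948). The SLC45A3 fall was lost without control array 1 or 3 or wild-type SPOP array 3, at adjusted p of 0.0510 to 0.0801.

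The STEAP metalloreductases reduce iron and copper at membranes, and 2 of 3 were measured. STEAP2 was below wild-type SPOP in the mutants by 0.35 on the log2 scale (SE 0.10, limma adjusted p = 0.0390), the only measured gene with that direction past the threshold. Wild-type SPOP arrays of STEAP2 read 11.66 to 11.77, control arrays 11.36 to 11.58 and mutant arrays 11.14 to 11.56. The STEAP2 call was lost in 8 of the 12 fits that left out 1 array, namely without any wild-type SPOP, F102C or F133V array or the second F133L array, with values of -0.38 to -0.28. A second STEAP2 probe gave -0.20 (adjusted p = 0.214), and the brightest had an adjusted p of 0.0607 over all kept probes. STEAP1 differed by 0.03 in the same comparison, which was not called.

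The signalling group held the largest differences between wild-type SPOP and control among the measured genes. PMEPA1 encodes a membrane protein that restrains transforming growth factor beta signalling and links to ubiquitin ligases of the NEDD4 family. Its level was 8.89, 8.78 and 8.99 on control arrays and 7.19, 7.16 and 7.20 on wild-type SPOP arrays. F102C arrays read 7.94 and 7.93, F133V arrays 8.02 and 7.75, and F133L arrays 7.75 and 7.96. The wild-type arrays were lowest, the mutants intermediate and the controls highest, with no overlap. With wild-type SPOP, PMEPA1 fell by 1.70 ± 0.10 log2 units, a 3.25-fold difference (limma, adjusted p = 1.35e-06). In the mutants the level was 0.71 ± 0.09 above wild-type SPOP (adjusted p = 0.000627) and fell by 0.99 against the control (SE 0.09, adjusted p = 3.13e-05). The call above wild-type SPOP was lost under equal medians of all probes (0.34, adjusted p = 0.0511). Of the other PMEPA1 probes, 1 detected on all arrays gave -1.39 with wild-type SPOP and -1.09 in the mutants against the control, both called. The same probe gave 0.30 in the mutants against wild-type SPOP, which was not called (adjusted p = 0.232). The remaining probe, detected on 5 arrays, gave 0.12 there (adjusted p = 0.771).

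PTGER4 encodes the EP4 receptor for prostaglandin E2, which raises cyclic AMP. Control arrays read 7.44, 7.80 and 7.75 and wild-type SPOP arrays 6.23, 6.44 and 6.21. Mutant arrays read 6.96 and 7.10 for F102C, 7.30 and 7.48 for F133V, and 7.77 and 7.70 for F133L. Each wild-type array was below each other array, F102C stayed below the controls, and F133L lay within the control range. With wild-type SPOP, PTGER4 fell by 1.37 ± 0.12 log2 units, or 2.58-fold (limma, adjusted p = 2.63e-05). The mutants exceeded wild-type SPOP by 1.09 ± 0.10 (adjusted p = 7.60e-05), and their difference from the control, -0.28 ± 0.10, was not called (adjusted p = 0.0980).

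NDRG1 encodes a stress-responsive protein of cell differentiation that also responds to low oxygen. Its levels were 10.68, 10.64 and 10.51 with the control vector and 10.22, 10.32 and 10.40 with wild-type SPOP. They were 11.36 and 11.20 with F102C, 11.44 and 11.45 with F133V, and 11.80 and 11.76 with F133L. The mutant arrays stood above all control arrays, and the wild-type arrays below them. NDRG1 was 1.19 ± 0.08 above wild-type SPOP in the mutants, or 2.28-fold (limma, adjusted p = 1.03e-05), and 0.89 ± 0.08 higher than in the control (adjusted p = 2.85e-05). The wild-type difference from the control, -0.30 ± 0.09, did not pass the threshold (adjusted p = 0.0789).

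RHOU encodes a small GTPase that acts on cell shape and adhesion. Control arrays gave 10.42, 10.30 and 10.32 and wild-type SPOP arrays 10.08, 10.24 and 10.13. F102C gave 11.25 and 11.10, F133V 11.03 and 11.13, and F133L 11.49 and 11.56. As for NDRG1, no mutant array overlapped another group. RHOU rose in the mutants by 1.11 ± 0.08 over wild-type SPOP (limma, adjusted p = 1.31e-05) and by 0.91 ± 0.08 over the control (adjusted p = 2.14e-05). Wild-type SPOP and control differed by -0.20 ± 0.09 (adjusted p = 0.237).

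LIFR encodes the receptor for leukemia inhibitory factor, which signals through STAT3. Its levels were 6.79, 7.0002 and 7.33 on control arrays and 7.46, 7.05 and 7.04 on wild-type SPOP arrays. Mutant arrays gave 7.42 and 7.87 for F102C, 7.63 and 7.97 for F133V, and 8.17 and 7.90 for F133L. The lowest F102C array lay under the highest wild-type array, and all mutant arrays lay above the controls. LIFR was 0.64 ± 0.15 above wild-type SPOP in the mutants (limma, adjusted p = 0.0217) and 0.79 ± 0.15 higher than in the control (adjusted p = 0.00721). The former call was lost without wild-type SPOP array 2 (0.58, adjusted p = 0.0882) or array 3 (0.57, adjusted p = 0.0911). Both LIFR calls were lost under equal medians of all probes (0.28 and 0.33, adjusted p = 0.162 and 0.0721). They were also lost with detected probes as a covariate (adjusted p = 0.0894 and 0.184).

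CAMKK2, a calcium-dependent kinase that activates AMPK, read 6.92, 6.75 and 6.73 on control arrays and 7.14, 6.73 and 7.29 on wild-type SPOP arrays. Mutant arrays gave 7.37 and 7.11 for F102C, 7.69 and 7.40 for F133V, and 7.23 and 7.46 for F133L. The mutants lay above the controls without overlap and overlapped wild-type SPOP. CAMKK2 rose by 0.57 ± 0.13 over the control (limma, adjusted p = 0.0142), while its difference from wild-type SPOP, 0.32 ± 0.13, was not called (adjusted p = 0.130). The rise was lost without control array 2 (0.55, adjusted p = 0.0605) or 3 (0.54, adjusted p = 0.0622), and a second probe gave 0.36 (adjusted p = 0.0597). Of the remaining signalling genes, IQGAP2, a cytoskeletal scaffold, was 0.43 above wild-type SPOP in the mutants. That call was lost without wild-type SPOP array 1 or 2, either F102C array, F133V array 1 or F133L array 2, at adjusted p of 0.0593 to 0.129. RAB3B, a GTPase of secretory vesicles, was called in no main comparison, with differences of 0.07 to 0.31.

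**Figure D2:**
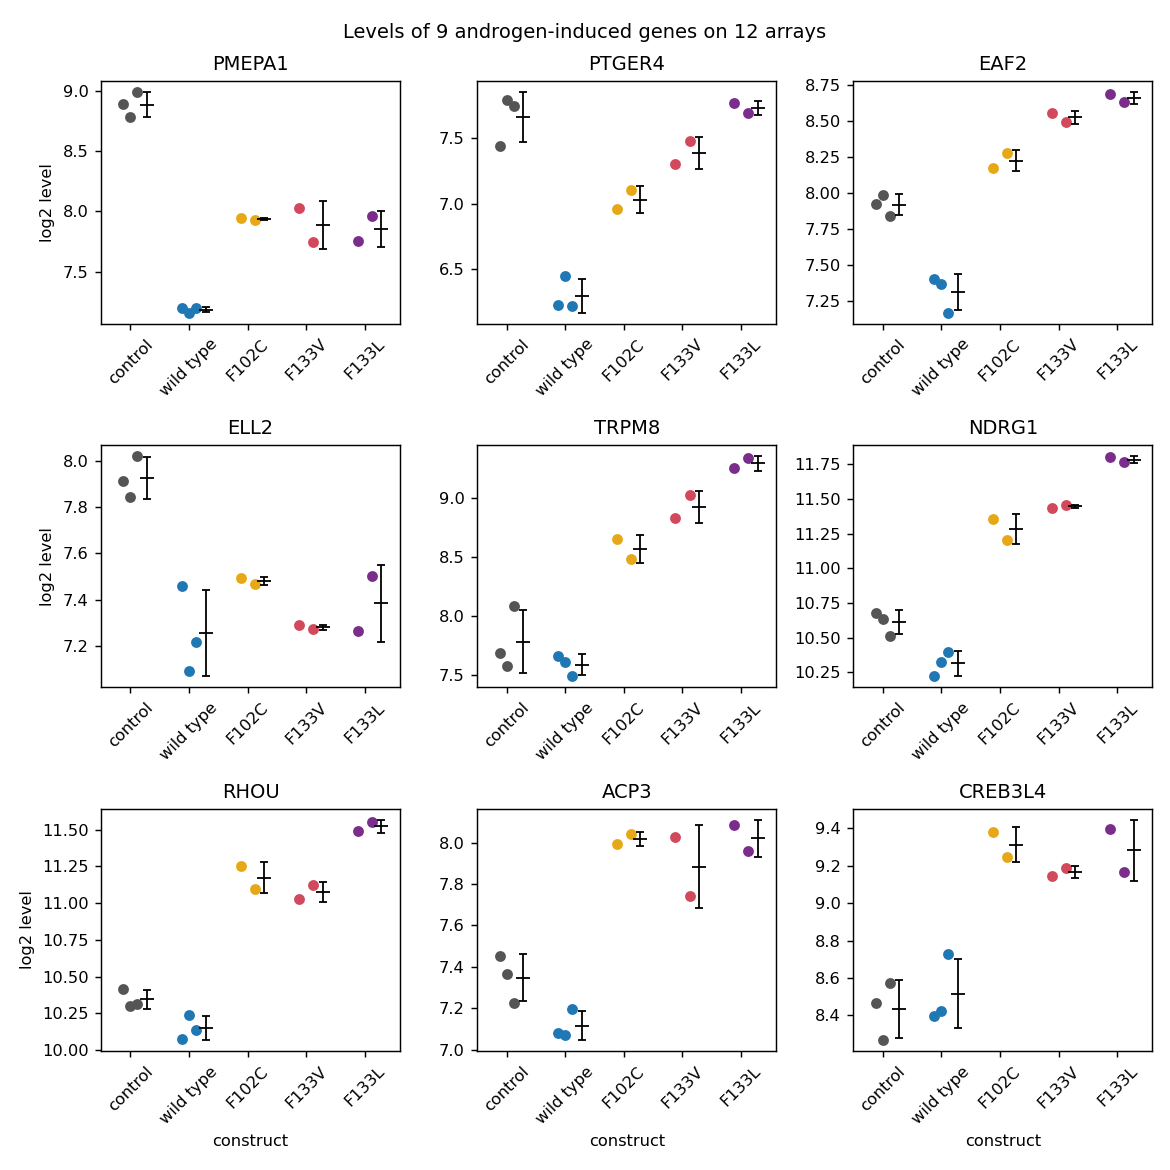
Normalized log2 level (vertical axis, scaled per panel and not from 0) of 9 genes on every array, by construct, with points for arrays and black bars for the group mean and SD. PMEPA1 and PTGER4 are lowest with wild-type SPOP, ELL2 is low in all SPOP groups, and TRPM8, NDRG1, RHOU, ACP3 and CREB3L4 are higher on every mutant array than on any other array.

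Transcription and elongation genes split by gene, as the plot of levels by construct shows. EAF2 encodes a partner of the ELL elongation factors and is known as a growth-restraining androgen target in prostate. Its levels were 7.93, 7.99 and 7.84 on control arrays and 7.40, 7.37 and 7.17 on wild-type SPOP arrays. They were 8.17 and 8.28 with F102C, 8.56 and 8.49 with F133V, and 8.69 and 8.63 with F133L. Wild-type arrays were lowest and mutant arrays highest, with the controls between them. EAF2 fell by 0.61 with wild-type SPOP (limma, SE 0.09, adjusted p = 0.00269). It was 1.16 ± 0.08 above wild-type SPOP in the mutants, or 2.23-fold (adjusted p = 1.31e-05), and 0.55 ± 0.08 higher than in the control (adjusted p = 0.00125). The rise over the control was not called under equal medians of all probes (0.07, adjusted p = 0.711) or with detected probes as a covariate (0.60, adjusted p = 0.154).

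ELL2 encodes an elongation factor that keeps RNA polymerase II moving. It read 7.91, 7.84 and 8.02 on control arrays and 7.46, 7.09 and 7.22 on wild-type SPOP arrays. Mutant arrays gave 7.49 and 7.47 for F102C, 7.29 and 7.27 for F133V, and 7.26 and 7.50 for F133L. All SPOP arrays lay below all controls, and wild-type and mutant arrays overlapped. ELL2 fell by 0.67 with wild-type SPOP (limma, SE 0.11, adjusted p = 0.00442) and by 0.54 in the mutants (SE 0.10, adjusted p = 0.00411). The fall in the mutants was not called with detected probes as a covariate (-0.63, adjusted p = 0.212). The difference between mutants and wild-type SPOP was 0.13, with a 95% interval of -0.08 to 0.34 (adjusted p = 0.436).

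CREB3L4 encodes a membrane-bound transcription factor of the endoplasmic reticulum that is abundant in prostate. Control arrays read 8.47, 8.27 and 8.57 and wild-type SPOP arrays 8.39, 8.42 and 8.73. F102C read 9.38 and 9.25, F133V 9.14 and 9.19, and F133L 9.40 and 9.17. Control and wild-type arrays overlapped, and all mutant arrays lay above both. CREB3L4 rose in the mutants by 0.74 ± 0.10 over wild-type SPOP (limma, adjusted p = 0.00130) and by 0.82 ± 0.10 over the control (adjusted p = 0.000443). The latter call was lost under equal medians of all probes (0.33, adjusted p = 0.0542) and with detected probes as a covariate (adjusted p = 0.197). The other 3 genes of this group were called in none of the 3 comparisons. They were MED28, a Mediator subunit, MAF, a leucine zipper transcription factor, and ZBTB10, a zinc finger repressor. MAF was detected on 3 of 12 arrays, 1 of each mutant, and on 0 arrays of the other groups, so it gets no fold.

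Of 7 listed metabolic enzymes, 2 were measured. PLPP1, which removes phosphate from signalling lipids, was 0.48 above wild-type SPOP in the mutants and 0.50 higher than in the control (limma, adjusted p = 0.00145 and 0.000954). Wild-type SPOP and control arrays of PLPP1 all lay between 11.23 and 11.28, and mutant arrays between 11.66 and 11.83. A second PLPP1 probe was not called against the control (0.30, adjusted p = 0.0975) and was called against wild-type SPOP (0.37, adjusted p = 0.0499). Another was called in both comparisons, at 0.80 against the control (adjusted p = 0.000180) and 0.73 against wild-type SPOP (adjusted p = 0.000651). Under equal medians of all probes both PLPP1 calls were lost (0.21 and 0.05, adjusted p = 0.256 and 0.780). The call against the control was also lost with detected probes as a covariate (adjusted p = 0.132). ODC1, the first enzyme of polyamine synthesis, differed by 0.01, 0.05 and 0.06 in the 3 comparisons, with 0 calls. Its 95% interval between mutants and wild-type SPOP was -0.11 to 0.22.

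Among the secretory products, 2 of 4 were measured. ACP3 encodes prostatic acid phosphatase, long used as a serum marker of prostate cancer. Levels were 7.45, 7.37 and 7.22 with the control vector and 7.08, 7.07 and 7.19 with wild-type SPOP. They were 7.99 and 8.04 with F102C, 8.02 and 7.74 with F133V, and 8.08 and 7.96 with F133L. The mutant arrays were above all others. ACP3 rose in the mutants by 0.86 ± 0.09 over wild-type SPOP (limma, adjusted p = 0.000177) and by 0.63 ± 0.09 over the control (adjusted p = 0.00104). The latter call was lost under equal medians of all probes (0.16, adjusted p = 0.345) and with detected probes as a covariate (adjusted p = 0.183). The difference of -0.23 ± 0.10 between wild-type SPOP and control was not called (adjusted p = 0.221). AZGP1, a secreted lipid-mobilising glycoprotein, was detected on 2 control arrays and on 0 arrays of the other groups, and was called in no comparison.

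The last group held 6 measured genes of division, ubiquitin transfer and other roles. CENPN, a kinetochore protein that recognises the centromeric nucleosome, fell by 0.36 with wild-type SPOP (limma, adjusted p = 0.0322) and was 0.49 above wild-type SPOP in the mutants (adjusted p = 0.00225). The fall of CENPN was lost in each of the 6 fits without a control or a wild-type SPOP array, at adjusted p of 0.0572 to 0.120. Its call above wild-type SPOP in the mutants was lost under equal medians of all probes (0.24, adjusted p = 0.18). HERC3, a ubiquitin ligase, was 0.30 above wild-type SPOP in the mutants and 0.31 higher than in the control, and MPHOSPH9, a centrosomal protein, was 0.35 higher than in the control. Under equal medians of all probes these 3 values were -0.05, -0.13 and -0.13. The first HERC3 call was lost without wild-type SPOP array 2 or 3, either F102C array, F133V array 2 or F133L array 2 (0.25 to 0.31), and the second without any control array or F102C array 1 (0.30 to 0.34). The MPHOSPH9 call was lost without control array 1 or 3, F102C array 1 or any F133V or F133L array (0.25 to 0.39). C1orf116, named for its specific regulation by androgen, was 0.39 above wild-type SPOP in the mutants, a call lost without any of the 3 wild-type SPOP arrays (adjusted p of 0.0516 to 0.0757). A second C1orf116 probe gave 0.27 there (adjusted p = 0.161), and another was called (0.34, adjusted p = 0.0447). The latter was also called against the control (0.33, adjusted p = 0.0492). The brightest was not called against the control (0.28), with an adjusted p of 0.0930 over kept probes and 0.0590 over genes. NCAPD3, a condensin subunit, and TPD52, a protein of vesicle traffic, were not called.

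**Figure D3:**
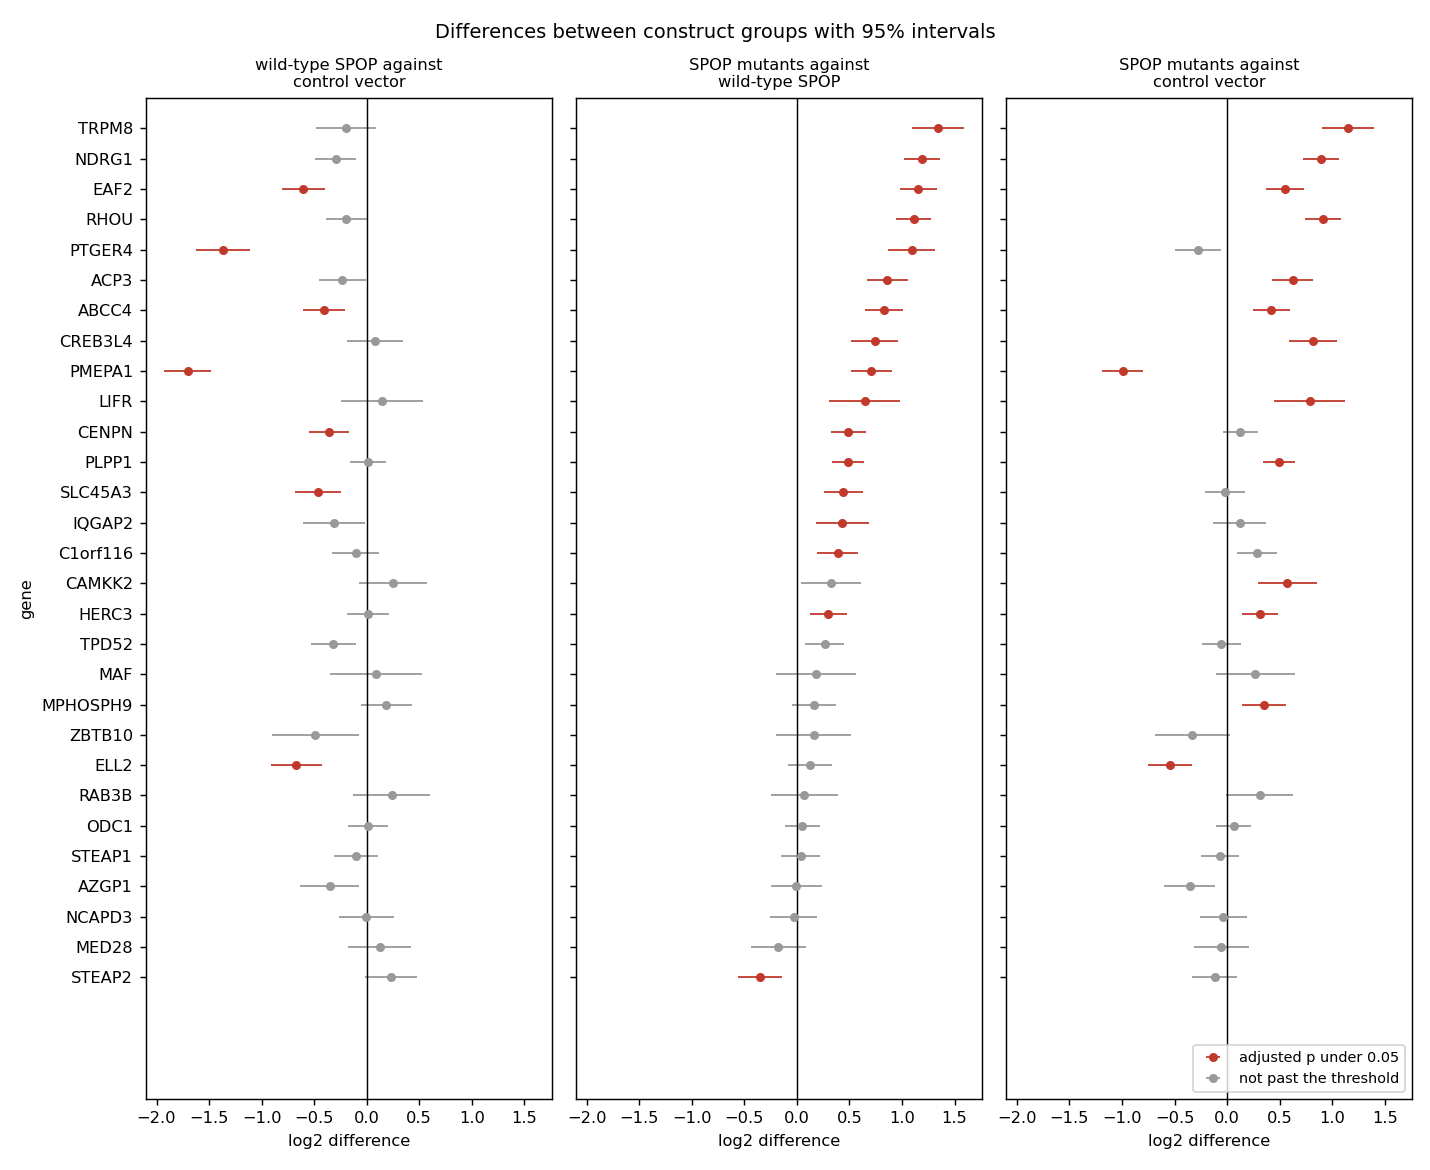
Log2 difference (horizontal axis) of the 29 measured genes in the 3 main comparisons, with points for limma estimates, bars for 95% intervals and red for an adjusted p under 0.05. PMEPA1 and PTGER4 reach -1.70 and -1.37 in wild-type SPOP against the control, and 16 genes are red to the right of 0 in the mutants against wild-type SPOP.

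Combined over the 3 comparisons, as the plot of differences shows, the genes fell into a few patterns. EAF2 and ABCC4 were called lower with wild-type SPOP and higher in the mutants than in either other group. Another 8 genes were called higher in the mutants than in both, with no call for wild-type SPOP against the control, namely TRPM8, LIFR, NDRG1, RHOU, CREB3L4, PLPP1, ACP3 and HERC3. SLC45A3, PTGER4 and CENPN were called lower with wild-type SPOP and above wild-type SPOP in the mutants, with no call between mutants and control. PMEPA1 stood between wild-type SPOP and the control in the mutants, and ELL2 was called lower than the control both with wild-type SPOP and in the mutants together. In 9 of the 29 genes no main comparison passed the threshold, namely STEAP1, RAB3B, MED28, MAF, ZBTB10, ODC1, AZGP1, NCAPD3 and TPD52. These patterns are read from calls, and a missing call does not show that 2 groups were alike. Of the genes called higher in the mutants than in the control, only NDRG1 and RHOU kept that call under every processing alternative.

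Each mutant was also set against wild-type SPOP alone. With F102C 11 of the 29 genes rose and 0 fell, where 1.68% and 1.46% of all tested genes did so. For F133V the counts were 13 and 0, beside 3.61% and 4.54%, and for F133L 14 and 0, beside 3.23% and 3.32%. In each case 1 gene was lower with limma's unadjusted p under 0.05, a cut at which the share of all genes was not counted. These counts rest on 2 mutant arrays each. They were 4 without F102C array 1, 5 without F102C array 2, 7 without F133V array 1 and 8 without F133L array 2, in fits that leave 1 array of that mutant and take its spread from the other groups. Under equal medians of all probes 5 rose with F102C, 4 rose and 8 fell with F133V, and 7 rose and 1 fell with F133L. The share of all genes under that scaling was not counted for single mutants. With detected probes as a covariate, 0 members were called for F133V, and the share of all genes in that fit was not counted.

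Over the 29 measured genes the median difference from wild-type SPOP was 0.35 with F102C, 0.44 with F133V and 0.39 with F133L. Among the 16 genes called higher in the mutants together, which were chosen for that call, F133L gave the highest mean of the 3 mutants in 12 and F102C the lowest in 10. TRPM8 was 0.98 ± 0.15 above wild-type SPOP with F102C, 1.34 ± 0.15 with F133V and 1.71 ± 0.15 with F133L. PTGER4 followed the same order, at 0.74 ± 0.13, 1.10 ± 0.13 and 1.44 ± 0.13. PMEPA1 did not, with 0.75, 0.70 and 0.67 in that order and overlapping arrays. limma's F test for differences among the 3 mutants called 0 of the 29 genes, with 7 at an unadjusted p under 0.05 and a lowest adjusted p of 0.146 for PTGER4. It called 0.0245% of all tested genes. Their share at the unadjusted cut was not counted, so the 7 members have no background beside them. The F test among all 5 groups called 14 of the 29 genes, beside 12.8% of all genes.

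**Figure D4:**
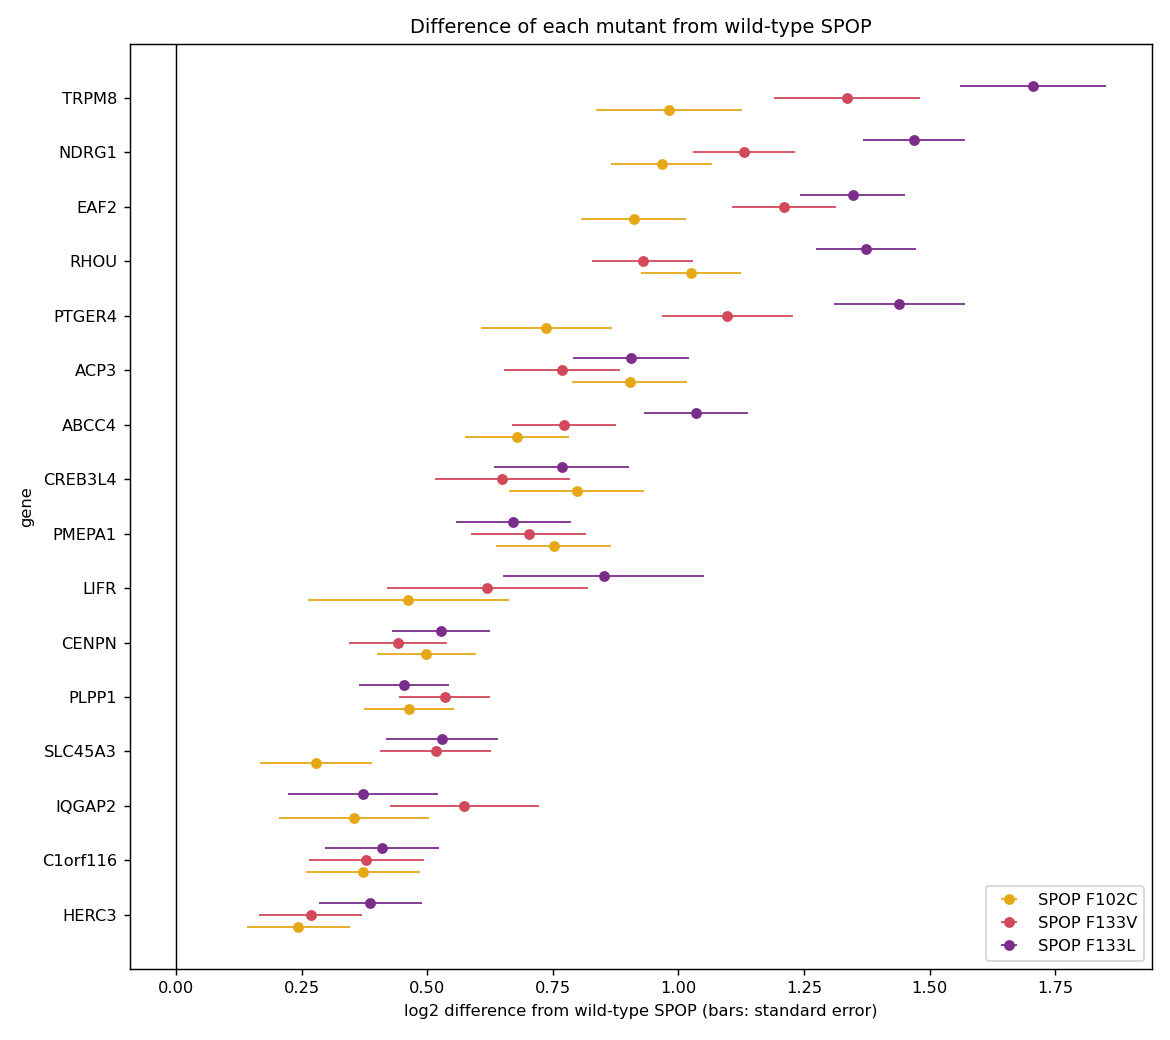
Log2 difference of each mutant from wild-type SPOP (horizontal axis) for the 16 genes called higher in the mutants together, with points for limma estimates, bars for standard errors and colours for the 3 mutants. TRPM8, NDRG1 and PTGER4 spread from F102C to F133L, whereas the points of PMEPA1 and C1orf116 nearly coincide.

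Other genes of the androgen pathway were read from 3 reference lists. Over all tested genes 3.08% rose and 3.07% fell with wild-type SPOP, 5.57% and 6.18% in the mutants against wild-type SPOP, and 5.59% and 6.62% in the mutants against the control. Of 18 other androgen-induced genes 15 were tested, of which 3 rose and 2 fell with wild-type SPOP, 9 rose and 0 fell in the mutants against wild-type SPOP, and 11 rose and 1 fell in the mutants against the control. FKBP5, a partner of HSP90 chaperones, fell by 0.60 with wild-type SPOP and was 0.96 above wild-type SPOP in the mutants. BMPR1B also fell with wild-type SPOP (-1.46), whereas KLK3, TMPRSS2 and ALDH1A3 rose (0.49, 0.43 and 0.80). BMPR1B was detected on at most 6 arrays and KLK3 on at most 10. The mean of BMPR1B with wild-type SPOP and that of KLK3 with the control vector were both 4.85. MAF, detected on 0 arrays of these groups, had means of 4.90 and 4.81 there, so both differences reach the detection floor. Of 6 androgen-repressed genes, all tested, 3 rose with wild-type SPOP, 4 fell in the mutants against wild-type SPOP, and 3 rose and 2 fell against the control. CAMK2N1, an inhibitor of a calcium-dependent kinase, rose by 1.99 with wild-type SPOP and was 1.31 lower in the mutants than that (log2 difference -1.31). Its mutant level was still 0.68 above the control. SERPINI1 and OPRK1, which also rose with wild-type SPOP, were 1.84 and 0.84 above the control in the mutants. On the list of transcription cofactors and partners 10 genes were tested, with 1 rising with wild-type SPOP, 1 falling in the mutants against wild-type SPOP and 2 rising against the control. Counts this small do not set the list apart from all genes. The coactivator NCOA1 rose by 0.44 with wild-type SPOP and by 0.42 in the mutants over the control. The acetyltransferase EP300 was the gene of this list that fell in the mutants against wild-type SPOP, at -0.53.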

How the data were processed

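RNA from 12 samples was measured on Illumina bead arrays with 47323 probes. The table that the authors deposited gives, per the file headers, linear bead intensity and detection p-value for every probe and array. A further table deposited by the authors holds processed values on what looks like a log2 scale, used as an alternative. The submitters' processing notes name lumi, with settings and any earlier background subtraction not given in the sources used here.

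The neqc method (limma 3.58.1, R 4.3.3) corrected the background and quantile normalized the intensities at an offset of 16, with control probes inferred from the detection p-values. Probes with a detection p-value under 0.05 on at least 2 arrays were kept, 23133 in all. Genes were named through the platform annotation, and the probe with the highest mean stood for each of 12227 genes. Levels are not compared between probes. limma (lmFit and eBayes) fitted 5 group means to all 12 arrays with 7 residual and 4.67 prior degrees of freedom, and the mutants together are the equally weighted mean of their 3 groups. P-values were adjusted over all tested genes by the Benjamini-Hochberg method, with a call at 0.05. They measure the spread between these arrays, whose small number limits the precision. An error after ± is a standard error.

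Members called in a main comparison and differing by over 0.5 log2 units in 1 of them are given with every array, and the rest by their differences, ranges and counts. The 9 genes drawn by construct were picked after their values were seen. The members and lists were chosen with earlier results of these data known. The alternatives were other background corrections, scalings, filters and probe choices, the authors' values, array weights, a covariate, a replicate block, a trended robust fit, fewer groups and leaving out each array. Promoter windows came from RefSeq, GRCh38.p14.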

Additional observations from a re-analysis of the deposited data

How the results depend on the processing

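Each result was recomputed under 14 processing alternatives and without each of the 12 arrays. Of the 38 called changes of single members in the 3 main comparisons, 15 kept their direction and their call throughout, and 4 reversed, all under equal medians of all probes. These were HERC3 in the mutants against wild-type SPOP (-0.0483), and ABCC4 (-0.0302), MPHOSPH9 (-0.13) and HERC3 (-0.13) in the mutants against the control. The cause was not tested. Of 49 differences that were not called, 29 changed sign and 19 were called under some alternative.

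Members called lower with wild-type SPOP numbered 4 with detected probes as a covariate, and 4 to 7 without single arrays. The medians there were -0.165 with an offset of 50, -0.13 with no background correction, -0.31 under equal medians of all probes, -0.101 with the authors' values, -0.102 without a filter on dim probes, -0.23 with the covariate, and -0.21 to -0.11 without single arrays. In the mutants against wild-type SPOP, 8 members were higher and 3 lower under equal medians of all probes, and 12 to 16 were higher without single arrays. The 1 lower member, STEAP2, became 0 under equal medians of probes detected on all arrays, the most variable probe per gene, the covariate, the replicate block and the fit to the compared groups only, and was 0 to 1 without single arrays. The medians were 0.34 with an offset of 50, 0.24 with no background correction, 0.0835 under equal medians of all probes, 0.45 under equal medians of detected probes, 0.35 with cyclic loess, 0.19 with the authors' values, 0.28 without a filter, 0.43 with a stricter filter, 0.45 with the covariate, and 0.34 to 0.43 without single arrays. Against the control vector, 3 members were higher and 12 lower under equal medians of all probes, and 2 higher and 1 lower with the covariate. Under equal medians of all probes, 156 of all 12227 tested genes were called higher there and 6779 lower. The medians were 0.135 with an offset of 50, 0.12 with no background correction, -0.17 under equal medians of all probes, 0.31 under equal medians of detected probes, 0.0993 with the authors' values, 0.145 without a filter, 0.16 with the covariate, and 0.16 to 0.27 without single arrays.

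For single mutants against wild-type SPOP, equal medians of all probes gave 5 higher for F102C, 4 higher and 8 lower for F133V, and 7 higher and 1 lower for F133L, and the covariate gave 0 higher for F133V. Without single arrays the higher members numbered 4 to 11, 7 to 13 and 8 to 15, and the lower ones 0 to 1 for F133L. A single lower member (1) was called for F102C and F133L with an offset of 50 and with the authors' values, and for all 3 mutants with no background correction and with a trended robust fit. Among the 3 mutants, the F test called 4 members with no background correction, 1 under equal medians of all probes, 2 with the authors' values and 3 with a trended robust fit. The share of all genes that this F test called under these alternatives was not counted. Over all genes, calls ranged from 343 to 1374 (752 as reported), 308 to 4617 (1437) and 107 to 6935 (1494) in the 3 main comparisons, lowest with the covariate and highest with no background correction in the first and equal medians of all probes in the others. Detected probes also differ by construct, so the covariate and the group effect are not independent.

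Same-numbered arrays did not deviate together (r of -0.06 to 0.04 over 21 pairs). Those pairs reuse the same arrays, and the 2 arrays of a mutant deviate from their mean by opposite amounts. Whether the numbers pair samples is therefore not settled by these values. With the replicate block, 6 members were lower with wild-type SPOP, 13 were above wild-type SPOP in the mutants, and 10 higher than in the control. Over all tested genes, 543, 672 and 920 were then called in either direction, beside 752, 1437 and 1494 in the main fit. A slide block was not run, because the arrays' headers give no slide. Groups of 2 or 3 arrays were too small for a search for outlying arrays.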
